A study of Homo sapiens with 27 samples.

Results

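Transcripts of 10 genes of the NRF2 antioxidant response were followed across 27 RNA-seq libraries of 2 human cell lines with altered ARID1A. The genes were taken by symbol from both count tables, NFE2L2, KEAP1, NQO1, HMOX1, GCLC, GCLM, SRXN1, TXNRD1, TXN and OSGIN1, which is 10 of the 67130 genes listed there, and all 10 passed the filter on low counts in both lines. Every library came from cells in which ARID1A, a large subunit of the BAF chromatin remodelling complex, had been knocked out. Of the libraries labelled 293T, an embryonic kidney line, 3 each carried the ARID1A missense forms V2084D, G2087E, G2087R or K2025E, 3 carried wild-type ARID1A (WT) and 3 were knockout cells alone (KO). Of the libraries labelled Huh7, a liver cancer line, 3 carried V2084D and an shRNA to knock down STUB1 (shSTUB1), 3 carried V2084D and 3 carried WT. STUB1 is a ubiquitin ligase that acts on clients of heat shock chaperones. Per the labels the ARID1A forms were Flag-tagged and stably introduced by lentivirus. No Huh7 library from knockout cells alone and no control hairpin is named in the labels, so hairpin delivery and STUB1 loss cannot be told apart. The labels do not say whether the 3 replicates of a group were separate cultures or clones, so each p-value measures only the spread between these libraries.

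NRF2, the protein of NFE2L2, is a transcription factor that is held low in resting cells because KEAP1 presents it to a CUL3 ubiquitin ligase. When reactive molecules modify KEAP1, NRF2 escapes, pairs with a small MAF protein and binds antioxidant response elements beside genes for quinone reduction, haem breakdown, glutathione synthesis and thioredoxin recycling. Because much of this control acts on protein stability, the NFE2L2 transcript and NRF2 activity are separate quantities. In liver the pathway is known for protection against toxic compounds, and in liver cancers mutations of NFE2L2 or KEAP1 can make it constantly active.

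Library totals were 59124374 to 79915177 counts in Huh7 and 33429483 to 55539529 counts in 293T, and levels are given as CPM, counts scaled to library size after TMM normalization. In the libraries labelled Huh7 the liver markers were low: 4 of 17 reached a mean of 1 CPM, with a summed level of 71.5 to 114 CPM, against 6 of 17 and 68.3 to 98.4 CPM in 293T. AFP lay between 0 and 0.0653 CPM and ALB between 0 and 1.38 CPM there, while 9 of 10 markers of the kidney line reached 1 CPM, with a sum of 345 to 920 CPM (10 of 10 and 385 to 846 CPM in 293T). The treatment note on the samples labelled 293T also describes Huh7 cells. Lines are therefore named only as labelled, and the part of this in the results was not tested. Fibroblast markers reached 1 CPM for 3 of 6 genes in each line (sums of 74.2 to 94.9 CPM in Huh7 and 37.0 to 65.8 CPM in 293T) and blood markers for 1 of 4. Since these are bulk samples, fewer cells of a type and less RNA per cell cannot be told apart. ARID1A stood at 291, 324 and 68170 CPM in the libraries labelled G2087R, against 117 to 193 CPM in KO, so 2 of the libraries labelled G2087R were near the KO level. STUB1 stood at 70.1, 84.1 and 67.2 CPM in shSTUB1 libraries, against 251, 248 and 296 CPM in V2084D libraries of Huh7. Of the STUB1 exon bases, 42.4% overlap the antisense gene JMJD8, and whether counting used strand is not given in the sources used here. On the first principal component K2025E replicates 2 and 3 lay at 104 and 66.6, while the other 16 libraries of 293T lay between -47.8 and 40.2.

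The antioxidant response element core TGACNNNGC was searched on both strands of the RefSeq promoter windows of build GRCh38.p14, each from 250 bases before to 50 bases after a start site. The table held 12 windows for 9 of the 10 genes, HMOX1 not being among them, and 4 windows (33.3%) held the core, against 13.3% of all 35116 windows. The matches are printed because these are the letters through which NRF2 is known to act. They are shown 5′ to 3′ on the gene's strand with the match in capitals, and a match to the core on the other strand appears as its reverse complement.
GCLM, window chr1:93909381-93909680, minus strand: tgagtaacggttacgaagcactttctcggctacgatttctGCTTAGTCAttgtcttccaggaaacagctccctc
KEAP1, window chr19:10502722-10503021, minus strand: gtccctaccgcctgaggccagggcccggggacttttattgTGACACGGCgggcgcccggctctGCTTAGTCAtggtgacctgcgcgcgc
TXNRD1, window chr12:104215529-104215828, plus strand: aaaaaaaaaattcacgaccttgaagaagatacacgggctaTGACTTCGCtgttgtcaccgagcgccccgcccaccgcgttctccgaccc
TXNRD1, window chr12:104286782-104287081, plus strand: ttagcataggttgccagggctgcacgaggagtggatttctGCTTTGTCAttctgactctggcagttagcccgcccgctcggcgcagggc
GCLM, KEAP1 and the second TXNRD1 window carry the core on the strand opposite to the gene, with its first base 34, 31 and 102 bases before the start site. KEAP1 also holds it on its own strand at 54 bases before the start, and the first TXNRD1 window holds it at 99 bases before the start with a further match across the start site. The windows of NFE2L2, NQO1, GCLC, SRXN1, TXN and OSGIN1 held no match, nor did the other window of KEAP1. This says only that these letters are not in 300 bases. Distant elements were not searched.

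Levels can be compared between genes only per length, here as CPM per kilobase of merged exons. TXN, a small protein that reduces disulphides, had the highest median at 249 CPM per kilobase in Huh7 and 165 in 293T. TXNRD1, HMOX1, KEAP1 and SRXN1 followed, with medians between 20.7 and 37.1 in Huh7 and between 20.2 and 35.1 in 293T. NFE2L2 and GCLM lay at 10.1 and 8.72 in Huh7 and at 7.25 and 7.33 in 293T. GCLC and NQO1 were lower, at 4.66 and 2.64 in Huh7 and at 4.64 and 4.94 in 293T, and OSGIN1 was lowest at 0.432 and 0.643 CPM per kilobase. The spread over libraries differed between the genes. In Huh7 the highest library of NFE2L2 was 1.19 times the lowest, while for HMOX1, NQO1 and OSGIN1 the ratio was 2.97, 2.94 and 3.13.

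**Figure D1:**
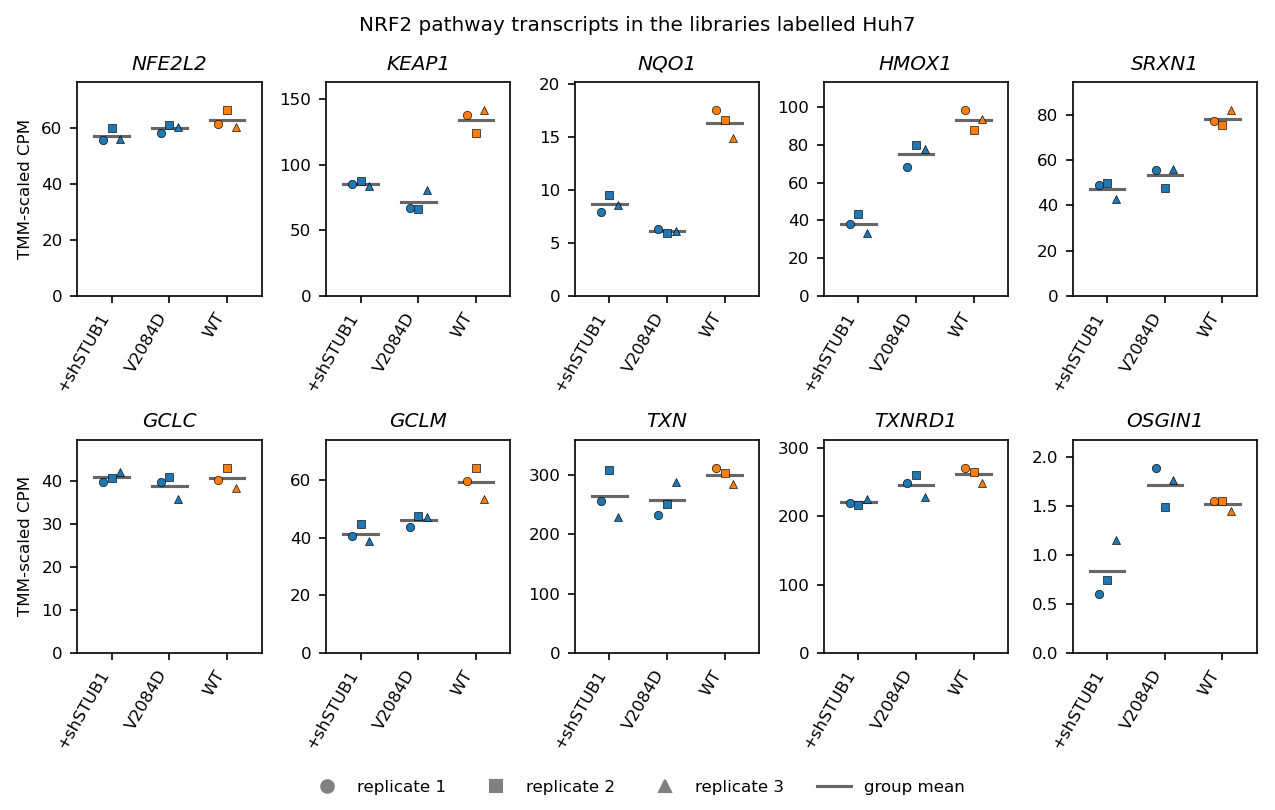
Levels of the 10 transcripts in the 9 libraries labelled Huh7, in TMM-scaled CPM on axes that start at 0. Points are libraries by replicate number, bars are group means, and +shSTUB1 marks V2084D with the hairpin; KEAP1, NQO1 and SRXN1 lie lower in V2084D than in WT, and HMOX1 is lowest with the hairpin.

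In Huh7, V2084D cells had less KEAP1, NQO1, HMOX1, GCLM and SRXN1 transcript than WT cells, while NFE2L2 itself did not pass the test. Here a call means an adjusted p under 0.05 in edgeR's quasi-likelihood test, with Benjamini-Hochberg adjustment across the whole table. Of the 10 genes 5 were called, all lower. In this comparison 42% of the 22510 genes tested were called and 20% were called lower, so calls were frequent among all genes. The median log2 difference of the 10 was -0.27, against 0.03 over all genes tested.

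The regulators came first. NFE2L2, on chr2:177227595-177392697 (gene spans are given on GRCh38), stood at 58.4, 61.1 and 60.2 CPM in V2084D libraries, against 61.3, 66.3 and 60.4 CPM in WT libraries. The ranges overlap, and the NFE2L2 log2 difference was -0.07 ± 0.06 (SE, adjusted p = 0.452 in edgeR's quasi-likelihood test). Of the NFE2L2 exon bases 17.6% are shared with AC019080.1, a gene on the same strand with 51 to 333 counts per library in Huh7. KEAP1, the sensor that holds NRF2 down (chr19:10486120-10503741), stood at 67.1, 66.5 and 81.0 CPM in V2084D libraries, against 138, 124 and 141 CPM in WT libraries. All V2084D libraries lay below all WT libraries, and KEAP1 fell to 0.533-fold (log2 -0.91 ± 0.09, adjusted p = 2.01e-05 in edgeR). Of the 5 genes called, KEAP1 and GCLM have a promoter window printed above with the core, NQO1 and SRXN1 have windows without it, and HMOX1 has none in the table. TXNRD1, with the core in both of its printed windows, was not called.

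NQO1, a quinone reductase and the usual readout of NRF2 (chr16:69706996-69726951), had the widest gap of the 10. It stood at 6.31, 5.98 and 6.11 CPM in V2084D libraries, against 17.6, 16.7 and 14.96 CPM in WT libraries. The groups did not overlap, and NQO1 fell to 0.374-fold (log2 -1.42 ± 0.12, adjusted p = 5.91e-06 in edgeR). Its exons overlap an antisense gene, AC092115.2, over 17.7% of their bases, and that gene had 0 counts in every library. HMOX1, the inducible enzyme that opens the haem ring (chr22:35380361-35394214), stood at 68.4, 79.9 and 77.8 CPM in V2084D libraries, against 98.4, 88.2 and 93.6 CPM in WT libraries. The groups did not overlap but the gap was small: HMOX1 fell to 0.807-fold (log2 -0.31 ± 0.10, adjusted p = 0.0307 in edgeR). The call was lost without WT replicate 1 or 3 or V2084D replicate 1 or 3 and with offsets for GC content and length, with an adjusted p of up to 0.123 over the alternatives.

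The members of glutathione synthesis differed from each other. GCLC, the catalytic subunit of glutamate-cysteine ligase (chr6:53497341-53616970), stood at 39.9, 41.0 and 35.8 CPM in V2084D libraries, against 40.3, 43.2 and 38.5 CPM in WT libraries. The libraries overlap, with a log2 difference of -0.06 ± 0.07 (adjusted p = 0.518 in edgeR). GCLM, its modifier subunit (chr1:93885205-93909456), stood at 43.8, 47.5 and 47.2 CPM in V2084D libraries, against 59.8, 64.4 and 53.5 CPM in WT libraries. GCLM fell to 0.78-fold without overlap (log2 -0.36 ± 0.08, adjusted p = 0.005 in edgeR). Whether the pair of subunits moved unequally was not tested.

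Of the thioredoxin members, SRXN1 was the one called. SRXN1, which reduces overoxidised peroxiredoxins (chr20:646615-653370), stood at 55.8, 47.8 and 56.3 CPM in V2084D libraries, against 77.6, 75.5 and 82.1 CPM in WT libraries. It fell to 0.68-fold with no overlap (log2 -0.56 ± 0.09, adjusted p = 0.000414 in edgeR). SRXN1 shares 85% of its exon bases with a read-through gene, AL121758.1, which had at most 12 counts in any library. TXN (chr9:110243811-110256640) stood at 232, 251 and 288 CPM in V2084D libraries, against 313, 304 and 284 CPM in WT libraries. TXNRD1, the reductase that recharges thioredoxin (chr12:104215779-104350305), stood at 249, 260 and 228 CPM in V2084D libraries, against 271, 264 and 249 CPM in WT libraries. Neither passed the test, with log2 differences of -0.22 ± 0.11 for TXN (adjusted p = 0.132) and -0.09 ± 0.06 for TXNRD1 (adjusted p = 0.304, edgeR). OSGIN1, an oxidative stress induced growth inhibitor (chr16:83948282-83966332), was near the lower limit of these libraries, at 1.89, 1.49 and 1.76 CPM in V2084D against 1.56, 1.55 and 1.44 CPM in WT. OSGIN1 shares 13.9% of its exon bases with AC009119.2, which had at most 7 counts in any library. Its groups overlap (log2 0.18 ± 0.27, adjusted p = 0.635 in edgeR).

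Stress genes outside the list moved in the same libraries. HSPA1A, a heat shock chaperone, stood at 58.2, 48.0 and 55.4 CPM in V2084D libraries, against 574, 541 and 611 CPM in WT libraries. CHAC1, a target of the integrated stress response that degrades glutathione, stood at 75.0, 66.1 and 65.8 CPM in V2084D libraries, against 12.7, 14.0 and 14.0 CPM in WT libraries. DDIT3, another target of that response, stood at 30.3, 29.1 and 28.7 CPM in V2084D libraries, against 10.9, 8.89 and 10.4 CPM in WT libraries. Their part in the differences of the 10 genes was not tested. ARID1A itself stood at 268, 271 and 216 CPM in V2084D libraries, against 342, 366 and 400 CPM in WT libraries, far below the 5690 to 62920 CPM of WT libraries in 293T. All 9 libraries of Huh7 lay between 189 and 400 CPM. That range takes in the 291 and 324 CPM described above as near the KO level for G2087R in 293T. With no Huh7 library of knockout cells alone, the part of the introduced forms in these levels cannot be told.

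With the STUB1 hairpin, V2084D cells of Huh7 had less HMOX1 and OSGIN1 and more NQO1 than V2084D cells without it. Of the 10 genes, 1 was called higher and 2 lower, where 21.5% of all genes tested were called, 10.8% higher and 10.8% lower. HMOX1 stood at 37.9, 43.2 and 33.1 CPM in shSTUB1 libraries, against 68.4, 79.9 and 77.8 CPM in V2084D libraries. It fell to 0.505-fold with no overlap (log2 -0.99 ± 0.10, adjusted p = 0.000194 in edgeR), and the call held under the 15 alternatives that kept the threshold on p alone. Requiring a log2 difference of at least 1 as well ended it. NQO1 stood at 7.89, 9.53 and 8.59 CPM in shSTUB1 libraries, against 6.31, 5.98 and 6.11 CPM in V2084D libraries. It rose 1.41-fold with no overlap (log2 0.50 ± 0.11, adjusted p = 0.0108 in edgeR), with the same outcome under those alternatives, and it stayed below every WT library.

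OSGIN1 stood at 0.604, 0.743 and 1.152 CPM in shSTUB1 libraries, against 1.89, 1.49 and 1.76 CPM in V2084D libraries. It fell to 0.486-fold (log2 -1.04 ± 0.27, adjusted p = 0.0206 in edgeR). The call was lost without V2084D replicate 1, shSTUB1 replicate 1 or shSTUB1 replicate 2, with an adjusted p of up to 0.0748 over the alternatives. KEAP1 stood at 85.1, 87.6 and 84.0 CPM in shSTUB1 libraries, against 67.1, 66.5 and 81.0 CPM in V2084D libraries. The KEAP1 groups did not overlap, but the difference missed the threshold (log2 0.26 ± 0.09, adjusted p = 0.0628 in edgeR). It passed with DESeq2, with the GC and length offsets and without V2084D replicate 3. The other 6 genes were not called. Of these, TXNRD1 showed no overlap at 219, 216 and 225 CPM in shSTUB1 libraries, against 249, 260 and 228 CPM in V2084D libraries (adjusted p = 0.105 in edgeR).

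Set against WT cells of Huh7, the shSTUB1 cells had 7 of the 10 transcripts called, all lower, where 45.1% of all genes were called and 21.7% were called lower. HMOX1 fell to 0.407-fold (log2 -1.30 ± 0.10, adjusted p = 4.44e-06) and NQO1 to 0.529-fold (log2 -0.92 ± 0.11, adjusted p = 8.08e-05). SRXN1, at 49.2, 49.7 and 42.8 CPM in shSTUB1 libraries against 77.6, 75.5 and 82.1 CPM in WT libraries, fell to 0.602-fold (adjusted p = 5.8e-05). KEAP1 fell to 0.637-fold (adjusted p = 0.000165). GCLM, at 40.6, 44.8 and 39.0 CPM in shSTUB1 libraries, fell to 0.7-fold (adjusted p = 0.000498). TXNRD1 fell to 0.842-fold (adjusted p = 0.00872). OSGIN1 fell to 0.55-fold (adjusted p = 0.0239, edgeR throughout), a call lost under 7 alternatives, among them leaving out WT replicate 1 or 2 or shSTUB1 replicate 1 or 2. NFE2L2, at 55.7, 59.96 and 56.2 CPM in shSTUB1 libraries, GCLC, at 39.9, 40.7 and 42.1 CPM, and TXN, at 256, 309 and 229 CPM, were not called. This comparison shares its libraries with the other Huh7 comparisons, so the 3 sets of values are not independent.

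**Figure D2:**
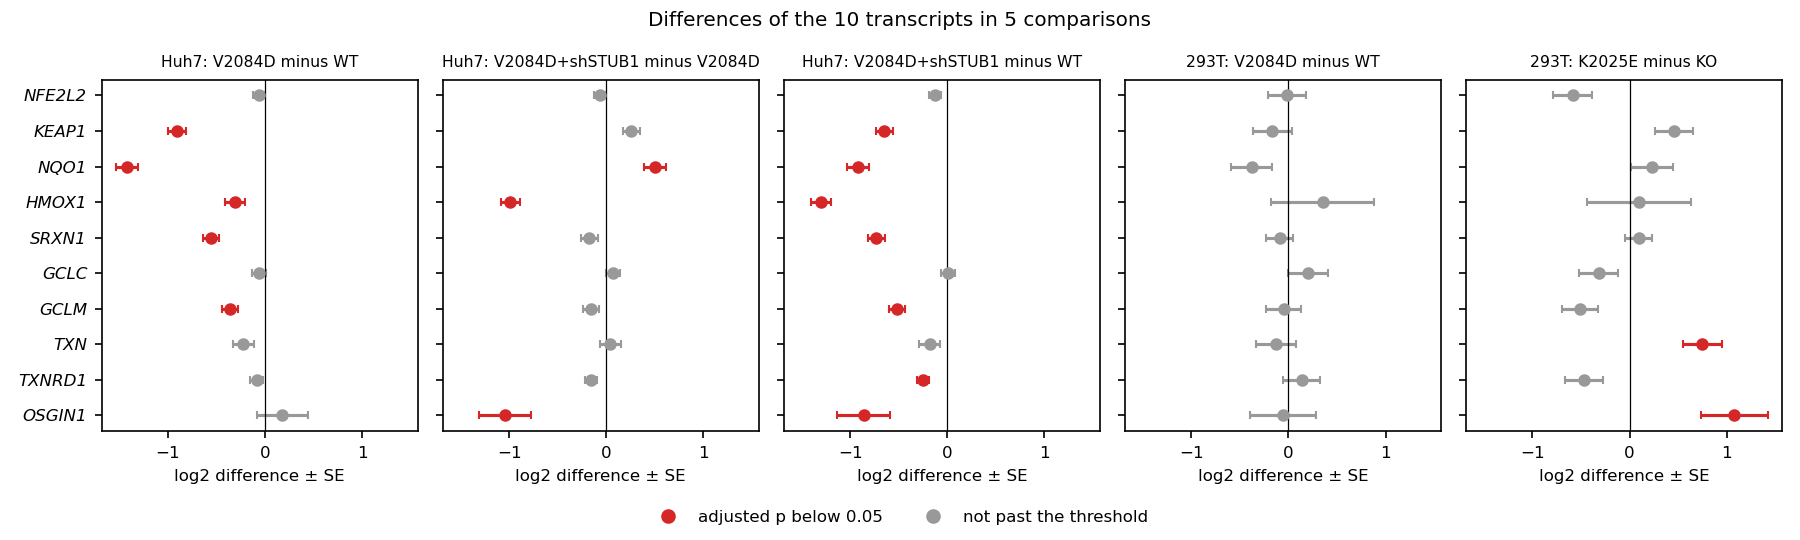
Log2 differences ± SE of the 10 transcripts in 5 comparisons from edgeR, red where the adjusted p was below 0.05. HMOX1 and NQO1 move apart between the first Huh7 panels, with HMOX1 at -0.31 and -0.99 and NQO1 at -1.42 and 0.50, and the wide HMOX1 bars in 293T come from a spread between libraries.

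In 293T the 10 transcripts were called in 1 of the 9 comparisons. Against KO cells, 0 of 10 were called in V2084D, G2087E, G2087R or WT cells, and 0% of the 23201 genes tested were called there. Against WT cells, 0 of 10 were called in V2084D, G2087E, G2087R or K2025E cells, where 0% of genes were called in the comparisons of V2084D and G2087E and 0.00431% in those of G2087R and K2025E. With DESeq2 the members called were likewise 0 in all 8 of these comparisons, and at an unadjusted p below 0.05 edgeR had between 467 and 2544 of all genes. With so few calls among all genes, an absence of calls says little about these 10.

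The K2025E cells were the exception, with TXN and OSGIN1 higher than in KO cells. TXN stood at 204, 336 and 305 CPM in K2025E libraries, against 188, 189 and 125 CPM in KO libraries. OSGIN1 stood at 2.67, 4.41 and 3.66 CPM in K2025E libraries, against 1.68, 1.27 and 2.11 CPM in KO libraries. Neither gene overlapped between the groups. TXN rose 1.68-fold (log2 0.75 ± 0.20, adjusted p = 0.0236) and OSGIN1 rose 2.12-fold (log2 1.08 ± 0.34, adjusted p = 0.0444, edgeR), where 12.9% of all genes were called and 7.17% were called higher. K2025E replicates 2 and 3, which lay apart on the first component, carried the highest values of both genes. With both left out 1 K2025E library remains, assumed to vary like the other groups, so that fit says little about the calls. The calls of TXN and OSGIN1 were each lost in edgeR without K2025E replicate 2 alone and without replicate 3 alone. Both were also lost without any 1 of the KO replicates or with only the K2025E and KO groups in the fit.

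NFE2L2 and GCLM lay lower in K2025E than in KO without passing the test. NFE2L2 stood at 41.8, 29.3 and 33.2 CPM in K2025E libraries, against 52.9, 57.3 and 46.2 CPM in KO libraries (log2 -0.59 ± 0.20, adjusted p = 0.0572). GCLM stood at 37.5, 25.1 and 39.0 CPM in K2025E libraries, against 51.6, 46.2 and 47.1 CPM in KO libraries (log2 -0.51 ± 0.19, adjusted p = 0.075). Neither gene overlapped between the groups. Without K2025E replicate 1, NFE2L2, GCLM, GCLC and TXNRD1 were called lower beside TXN and OSGIN1 higher. That was 6 of 10, among 5270 genes called. NFE2L2 was called lower in 6 of 18 alternatives in all, among them DESeq2, the replicate block and a filter of 1 CPM. GCLM was called lower in 2 of them, DESeq2 and the fit without K2025E replicate 1. KEAP1, also without overlap, stood at 82.7, 110 and 93.8 CPM in K2025E libraries, against 61.8, 67.6 and 79.0 CPM in KO libraries (log2 0.46 ± 0.20, adjusted p = 0.137, edgeR). How many of all genes lacked overlap here was not counted. In edgeR 6563 of the 23201 genes tested had an unadjusted p below 0.05, so such differences were frequent.

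**Figure D3:**
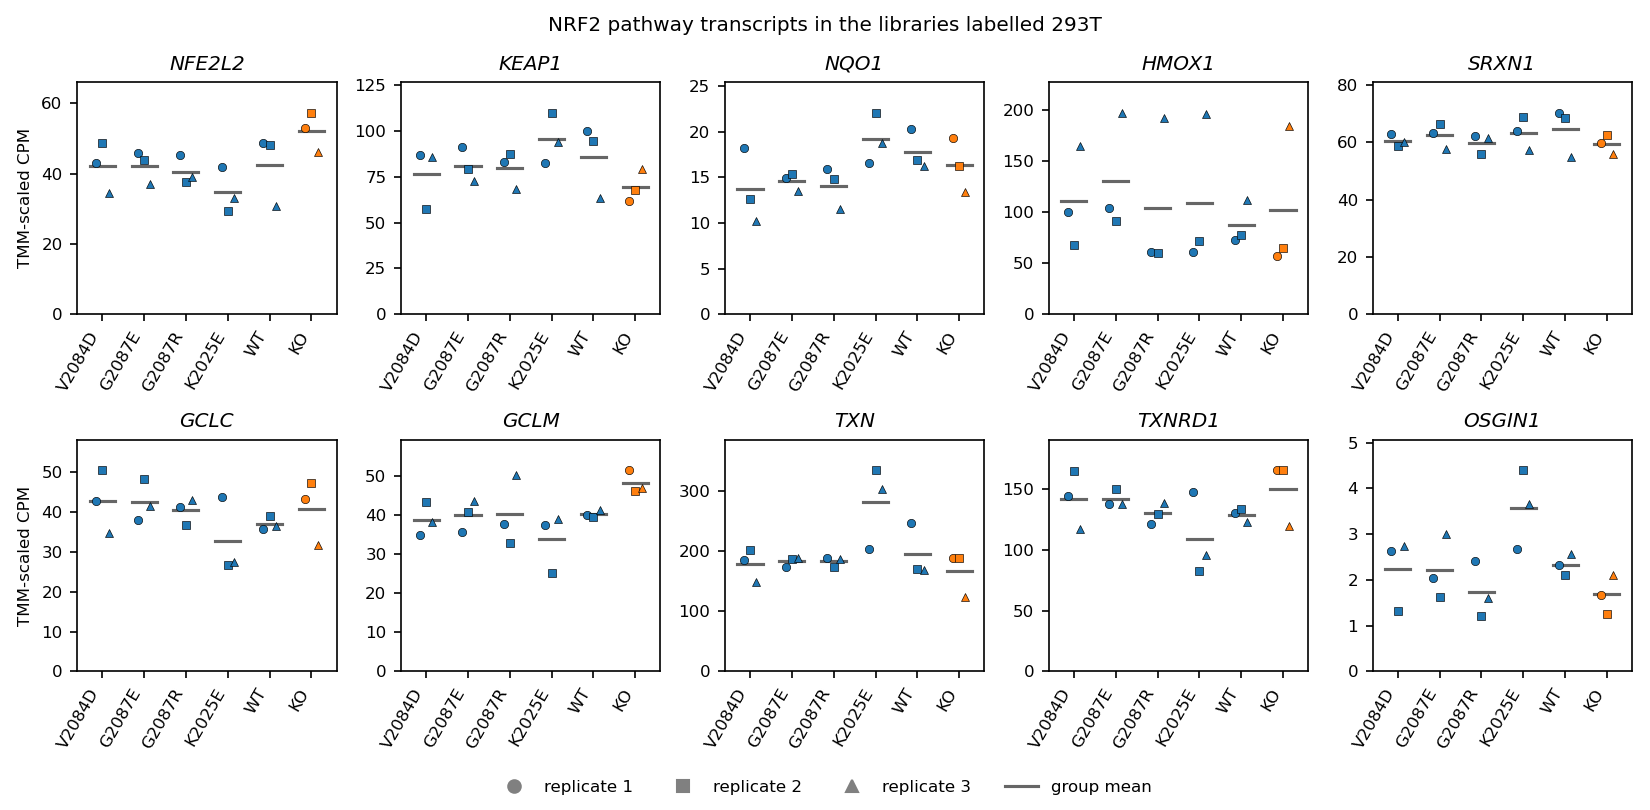
Levels of the 10 transcripts in the 18 libraries labelled 293T, in TMM-scaled CPM on axes that start at 0, by group, with bars for group means. The groups overlap for most genes, TXN and OSGIN1 are highest in K2025E, and HMOX1 splits within every group, with replicate 3 on top.

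The order of the 6 groups of 293T can be read from their means. NFE2L2 was lowest in K2025E at 34.7 ± 6.39 CPM and highest in KO at 52.1 ± 5.61 CPM (SD, n = 3 each), with the other 4 groups between 40.6 and 42.4 CPM and not separated beyond their spread. GCLM was likewise lowest in K2025E, at 33.9 ± 7.63 CPM, and highest in KO, at 48.3 ± 2.90 CPM. KEAP1 and NQO1 ran the other way, with K2025E highest at 95.4 ± 13.7 and 19.2 ± 2.77 CPM. The lowest was KO for KEAP1, at 69.5 ± 8.79 CPM, and V2084D for NQO1, at 13.7 ± 4.12 CPM. SRXN1 was the steadiest, with all 18 libraries between 54.9 and 70.4 CPM. TXNRD1 ran between 108 ± 34.2 CPM in K2025E and 150 ± 26.4 CPM in KO, and GCLC between 32.7 ± 9.68 CPM in K2025E and 42.6 ± 7.86 CPM in V2084D. TXN was highest in K2025E at 282 ± 68.6 CPM and lowest in KO at 167 ± 36.9 CPM, and OSGIN1 at 3.58 ± 0.869 and 1.69 ± 0.424 CPM in the same groups. Neighbours in these orders overlapped in their libraries, except WT and KO for GCLM and K2025E and WT for OSGIN1. GCLM stood at 40.1, 39.4 and 41.3 CPM in WT libraries, all below KO, and the difference was not called.

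HMOX1 in 293T followed the replicate number more than the ARID1A form. It stood at 100, 67.8 and 165 CPM in V2084D replicates 1, 2 and 3, at 104, 91.1 and 197 CPM in G2087E, and at 60.6, 60.1 and 193 CPM in G2087R. The values were 60.8, 71.4 and 196 CPM in K2025E, 72.2, 77.6 and 111 CPM in WT and 57.1, 64.5 and 185 CPM in KO. In each of the 6 groups the library numbered 3 was highest. Over all groups, replicate 3 libraries lay between 111 and 197 CPM (median 189, n = 6) and replicates 1 and 2 between 57.1 and 104 CPM (median 69.6, n = 12), with no overlap. The labels do not say what the number stands for, and the cause was not tested. The other 9 genes overlapped between the same sets of libraries. How many of all genes separate these sets was not counted, so the split is not shown to be particular to HMOX1.

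**Figure D4:**
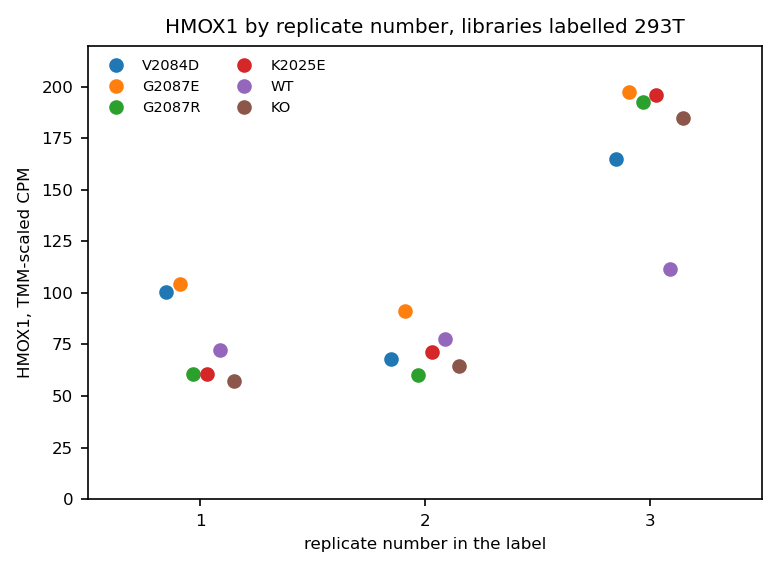
HMOX1 level in TMM-scaled CPM in the 18 libraries labelled 293T, by the replicate number in the label, with 1 colour per ARID1A form. The 6 libraries numbered 3 lie between 111 and 197 CPM, above all 12 others.

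The wide spread set what could be seen of HMOX1 in 293T. The standard error of its log2 difference was 0.10 between V2084D and WT in Huh7. In 293T it was 0.53 in each comparison with KO, and 0.22 with the replicate number as a block. Even so G2087E minus KO, the widest of the comparisons with KO, came to 0.36 without the block and 0.48 with it (adjusted p = 0.982 and 0.671 in edgeR). The chaperone gene HSPA1A was also highest in replicate 3 of each of the 6 groups. It stood at 1727, 1021 and 2791 CPM in V2084D replicates 1, 2 and 3, at 1914, 1217 and 2333 CPM in G2087E, and at 276, 299 and 2048 CPM in G2087R. The values were 228, 277 and 379 CPM in K2025E, 349, 294 and 416 CPM in WT and 187, 162 and 281 CPM in KO, and the part of this in the HMOX1 levels was not tested. In Huh7 the number had no such pattern, since HMOX1 was highest in replicate 2 with the hairpin, in replicate 2 of V2084D and in replicate 1 of WT.

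The genes whose profile was most like a member's were found by Pearson's r of log2 CPM over all libraries of a line. For HMOX1 in 293T they were DDIT4 (0.907), CXCR4 (0.872) and HYOU1 (0.865), over 18 libraries and 13270 genes. For NFE2L2 in 293T they were ZFAND5 (0.934), SLC25A40 (0.922) and PMAIP1 (0.91). In the 9 libraries of Huh7, over 13293 genes, they were TSPAN17 (0.992), FAM3C (0.991) and GNAS (0.991) for HMOX1 and VDAC2 (0.935), SPPL2A (0.93) and KCTD6 (0.909) for NFE2L2. These values are descriptions, since the libraries share groups, numbers and depth.

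The difference between V2084D and WT was set against the same difference in the other line by an interaction term in a fit of all 27 libraries. NQO1 was the member called, with a log2 difference of differences of -1.02 ± 0.26, lower in Huh7 than in 293T (adjusted p = 0.0139 in edgeR), where 9.72% of all genes tested were called and 4.21% were called lower. In 293T NQO1 stood at 18.3, 12.6 and 10.3 CPM in V2084D libraries, against 20.4, 16.9 and 16.2 CPM in WT libraries. Those groups overlap, and the log2 difference of V2084D minus WT was -1.42 in Huh7 and -0.38 in 293T. The call was lost without 293T V2084D replicate 1, at log2 -0.77 and an adjusted p of 0.0584. KEAP1 differed by -0.72 ± 0.24 (adjusted p = 0.0596) and SRXN1 by -0.44 ± 0.16 (adjusted p = 0.087, edgeR), which missed the threshold. The lines were deposited in separate count tables, and cell line and anything else that differs between the tables cannot be told apart.

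WT cells labelled Huh7 had more NFE2L2, KEAP1, GCLM, TXNRD1 and TXN transcript than WT cells labelled 293T. Of the 10 genes these 5 were called, all higher, where 23% of genes were called and 10.5% were called higher. TXNRD1 stood at 271, 264 and 249 CPM in Huh7, against 130, 134 and 123 CPM in 293T. It rose 1.95-fold (log2 0.96 ± 0.16, adjusted p = 0.000131), and the call held under the 18 alternatives that kept the threshold on p alone but not when a log2 difference of at least 1 was required. The others rose 1.42-fold for NFE2L2 (adjusted p = 0.027), 1.5-fold for KEAP1 (adjusted p = 0.0148), 1.41-fold for GCLM (adjusted p = 0.0215) and 1.48-fold for TXN (adjusted p = 0.0267, edgeR). These 4 calls were each lost under 4 to 8 of the 18 alternatives, including the replicate block and leaving out 1 WT library: 293T replicate 3 or any Huh7 replicate for NFE2L2, 293T replicate 3 or Huh7 replicate 3 for KEAP1, 293T replicate 2 or Huh7 replicate 1 or 2 for GCLM, and 293T replicate 2 or 3 or Huh7 replicate 1 or 2 for TXN.

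Beyond the 10 genes, 73 further genes of the pathway in 7 lists were read in the same fits. In Huh7 V2084D against WT, 18 rose and 22 fell of 71 tested. That is 56.3% called, against 42% of all genes tested, of which 22% were called higher and 20% lower. The NADPH enzymes, which supply the reducing power for NQO1 and thioredoxin reductase, had 5 of 6 lower and 0 higher, with a median log2 difference of -0.59 against 0.03 over all genes. PGD, of the pentose phosphate pathway, stood at 57.2, 57.6 and 62.9 CPM in V2084D libraries, against 126, 124 and 128 CPM in WT libraries, and fell to 0.47-fold (adjusted p = 1.01e-06). TKT and TALDO1, of the same pathway, fell to 0.649-fold and 0.618-fold, and IDH1, an isocitrate dehydrogenase, to 0.697-fold (adjusted p = 1.55e-05, 0.000147 and 9.61e-05, edgeR).

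The other glutathione genes ran the other way in Huh7 V2084D cells, with 7 of 14 higher and 1 lower than in WT and a median log2 difference of 0.24, against 22% called higher, 20% called lower and a median of 0.03 over all genes. SLC7A11, the cystine importer, stood at 196, 193 and 159 CPM in V2084D libraries, against 34.8, 37.1 and 31.5 CPM in WT libraries, and rose 5.3-fold (adjusted p = 1.18e-07 in edgeR). It was higher in V2084D libraries, as were CHAC1 and DDIT3, where NQO1 was lower. The glutathione transferases GSTM2, GSTM3 and GSTA4 rose 1.65-fold, 1.64-fold and 1.67-fold. Of the thioredoxin and peroxiredoxin genes 3 rose and 5 fell of 10. SESN2, a sestrin, stood at 151, 153 and 143 CPM in V2084D libraries, against 54.7, 58.0 and 59.1 CPM in WT libraries, and rose 2.6-fold (adjusted p = 2.39e-07), and TXNRD3 rose 2.15-fold (adjusted p = 2.06e-06, edgeR). PRDX1 and PRDX2, the peroxiredoxins, fell to 0.727-fold and 0.679-fold.

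Among the regulators and partners of NRF2, 4 rose and 4 fell of 11 in V2084D against WT cells of Huh7. Over all genes tested 22% were called higher and 20% lower, which holds for each list below. No list was tested against these shares. BACH1, a repressor at antioxidant response elements, rose 1.49-fold (adjusted p = 0.000296), and PALB2, a KEAP1-binding protein, rose 1.63-fold (adjusted p = 9.34e-05). DPP3, which also binds KEAP1, fell to 0.551-fold (adjusted p = 1.11e-05) and SQSTM1, an autophagy receptor that binds KEAP1, to 0.75-fold (adjusted p = 0.000997, edgeR). Of the iron and haem genes 3 rose and 2 fell of 9, with ABCB6, a porphyrin transporter, up 2.23-fold and HMOX2, the constitutive haem oxygenase, down to 0.589-fold. Of the detoxifying enzymes and transporters 1 rose and 4 fell of 18 tested. NQO2, the relative of NQO1, rose 1.49-fold, and UGDH and the carbonyl reductases CBR1 and CBR3 fell to 0.572-fold, 0.603-fold and 0.661-fold. Of the 3 other antioxidant enzymes SOD1 fell to 0.712-fold and the others were not called.

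**Figure D5:**
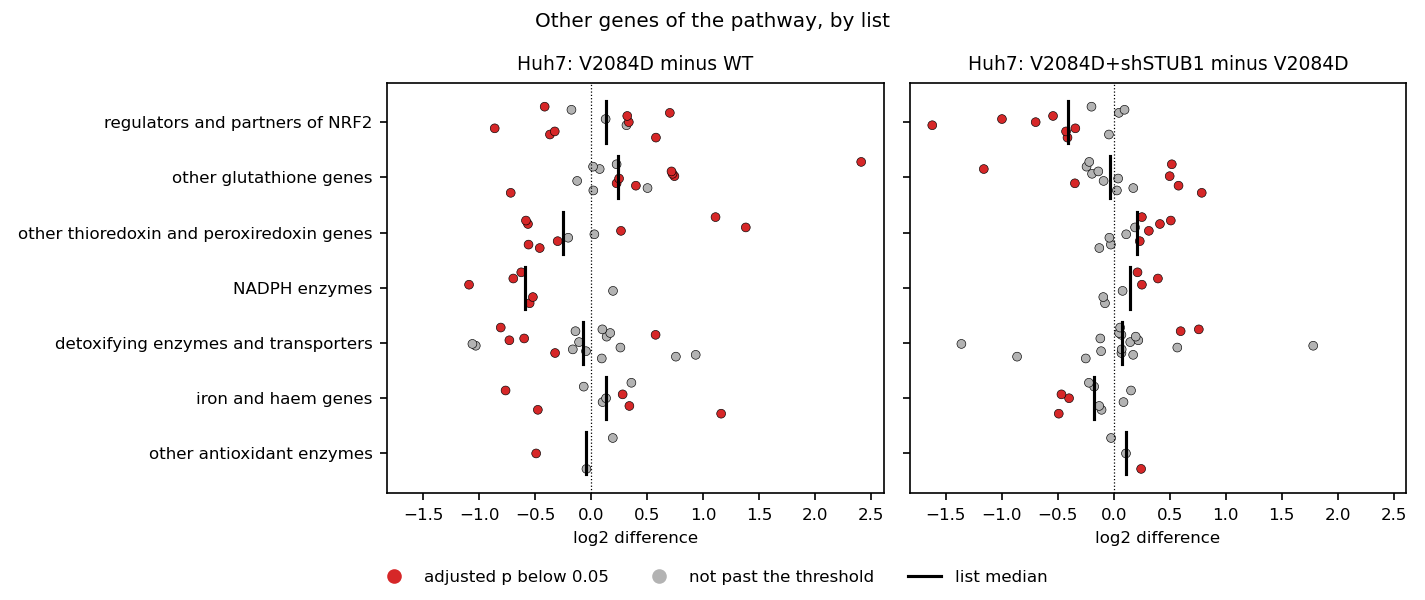
Log2 differences of the 71 further pathway genes tested in Huh7, by list, for V2084D minus WT and for shSTUB1 minus V2084D, red where the adjusted p was below 0.05 and with a bar at each list's median. The NADPH enzymes lie below 0 in the first panel (5 of 6 called lower) and the regulators below 0 in the second (7 of 11 called lower).

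With the STUB1 hairpin, 15 of the 71 pathway genes rose and 12 fell against V2084D. That is 38% called, against 21.5% of all genes, 10.8% in each direction. The regulators and partners had 7 of 11 lower and 0 higher, with a median log2 difference of -0.41 against -0.00349 over all genes. The 3 small MAF genes, whose proteins pair with NRF2 or with BACH1, were among them. MAFF stood at 3.43, 4.65 and 3.84 CPM in shSTUB1 libraries, against 13.8, 10.96 and 11.9 CPM in V2084D libraries, and fell to 0.326-fold (adjusted p = 0.000125). MAFK stood at 17.3, 17.4 and 17.3 CPM in shSTUB1 libraries, against 39.1, 30.6 and 34.2 CPM in V2084D libraries, and fell to 0.501-fold (adjusted p = 9.66e-05). MAFG fell to 0.617-fold (adjusted p = 0.000754) and CUL3, the ligase scaffold that serves KEAP1, to 0.744-fold (adjusted p = 0.00211, edgeR). These 4 genes were named for the smallest adjusted p in their list, so their lack of overlap between the groups is no separate support.

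The ferritin subunits FTL and FTH1, which store iron, fell with the hairpin to 0.724-fold and 0.758-fold (adjusted p = 0.00439 and 0.0051), as did ABCB6, to 0.712-fold, which made 3 lower and 0 higher of 9 iron and haem genes. Over all genes tested 10.8% were called higher and 10.8% lower with the hairpin. None of the lists here was tested against these shares. The thioredoxin and peroxiredoxin genes had 5 of 10 higher and 0 lower, led by TXNRD2 at 1.42-fold (adjusted p = 0.00363). The NADPH enzymes had 3 of 6 higher and 0 lower, with TALDO1, PGD and TKT at 1.31-fold, 1.19-fold and 1.16-fold. The glutathione genes had 4 higher and 2 lower of 14, among them CHAC2 up 1.72-fold and GSTM4 down to 0.449-fold. TRIM16 and TRIM16L, tripartite motif genes placed in the list of detoxifying enzymes and transporters, rose 1.51-fold and 1.69-fold. They were the 2 called of the 18 tested in that list, so the other genes there were not called. CAT, catalase, rose 1.18-fold as the 1 called of 3 other enzymes (edgeR throughout). Against WT, the shSTUB1 cells had 19 pathway genes higher and 23 lower of 71, or 59.2% called, against 45.1% of all genes, of which 23.5% were higher and 21.7% lower. The NADPH enzymes there had 1 higher and 5 lower, and the regulators 1 higher and 7 lower.

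In 293T, K2025E against KO had 20 of 70 pathway genes higher and 2 lower. That is 31.4% called, against 12.9% of all genes, of which 7.17% were higher and 5.72% lower. The other 8 comparisons had 0 pathway genes called in edgeR, with 0% or 0.00431% of all genes called. The glutathione and the thioredoxin genes each had 5 higher and 0 lower, of 14 and of 10 tested. GPX4, the lipid peroxide reductase, rose 1.96-fold (adjusted p = 0.0296) and PRDX5, a peroxiredoxin, rose 2.29-fold (adjusted p = 0.0126). Of the 9 iron and haem genes 4 rose, with BLVRB, a biliverdin reductase, at 2.21-fold and FTL at 1.68-fold. BACH1 fell to 0.478-fold (adjusted p = 0.0223) and RBX1, the ring subunit of the CUL3 ligase, rose 2-fold (adjusted p = 0.00737, edgeR). These calls rest on the same libraries as those of TXN and OSGIN1. Without K2025E replicate 2 alone, 1 gene of the whole table was called.

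Between the lines, 9 pathway genes were higher and 2 lower of 71 in the interaction of V2084D minus WT. That is 15.5% called, against 9.72% of all genes, of which 5.5% were higher and 4.21% lower. SLC7A11, SESN2, TXNRD3 and ABCB6 were higher in Huh7 than in 293T by log2 1.90, 1.20, 1.10 and 1.62 (adjusted p = 0.0126, 0.012, 0.00499 and 0.00115), and PGD and UGDH were lower, with -0.85 and -0.97 (adjusted p = 0.0166 and 0.00641, edgeR). Of WT cells in the lines, those of Huh7 had 20 pathway genes higher and 4 lower than those of 293T. That is 33.8% called, against 23% of all genes, of which 10.5% were higher and 12.5% lower. The list of NADPH enzymes had all 6 higher and a median log2 difference of 0.74, against -0.07 over all genes. FTL was 2.25-fold higher and PRDX2 2.37-fold higher, while GPX3, a secreted glutathione peroxidase, was lower at 0.523-fold (edgeR).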

How the data were processed

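The authors deposited raw counts per gene for 27 libraries in 2 tables, and all columns matched a sample. Per the submitters' processing notes the build was GRCh38 and edgeR was used, while the aligner, the counter, the annotation and the strand setting are not given in the sources used here. Gene positions, lengths and overlaps come from GENCODE 29 by gene identifier. The counts were tested with the quasi-likelihood method of edgeR 4.0.16 under R 4.3.3, with TMM factors and filterByExpr (minimum count 10, minimum total 15). Each line had 1 fit of all its groups, and comparisons between lines used 1 fit of all 27 libraries. This left 22510 genes in Huh7, 23201 in 293T and 24546 in the joint fit, with common biological coefficients of variation of 24.8%, 30.9% and 30.3%. The threshold on the Benjamini-Hochberg adjusted p was 0.05. A standard error is the size of the log2 difference over the root of its F value, and the profiles in log2 CPM had a prior count of 2. The code was tested on simulated data.

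The members, the lists and the tests were chosen with earlier results of these data known. All 10 members are named, and of each pathway list up to 4 genes with the smallest adjusted p among those called in a comparison. Overlap between the groups was not a criterion, but genes chosen by a small adjusted p tend not to overlap, so this is no separate support. The share of genes without overlap was not counted over the whole table in any comparison. Over 27 pairs, replicate libraries varied 11.1 to 310 times more than counting alone gives, by chi-square over its degrees of freedom, a value summed over genes in which abundant genes weigh most. Precision at low counts was not examined apart. A check of whether replicate numbers pair libraries was passed only by G2087R minus WT, where same-numbered deviations correlated at 0.132, 0.178 and 0.315. The main fits paired no libraries, also in that comparison, and the replicate block was used only as an alternative. With the block G2087R minus WT again had 0 members called. Alternatives were RLE factors, DESeq2 1.42.0, other filters, the replicate block, offsets for GC content and length (known for 97.5% to 97.9% of genes), the compared groups alone, library sizes without ARID1A, each library left out, the G2087R and K2025E libraries named above left out, and a log2 difference of at least 1. Leaving out the G2087R libraries together with the block was added after the data were seen.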

Additional observations from a re-analysis of the deposited data

Results flagged for a closer look

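NQO1 differed between the lines in its response to V2084D, by a test of that difference. V2084D minus WT was lower in Huh7 than in 293T by log2 -1.02 ± 0.26 (adjusted p = 0.0139, edgeR's quasi-likelihood test of the interaction). All 3 V2084D libraries lay below all 3 WT libraries in Huh7, and the groups overlapped in 293T. The adjusted p was 0.0584 without 293T V2084D replicate 1 and between 0.000731 and that value over the 24 alternatives that kept the threshold on p alone. The lines also differ in ARID1A level and were deposited in separate tables, and these cannot be told apart from the line.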

How the results depend on the processing

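Under the alternatives that kept the threshold on p alone, 2392 member differences kept their side of it, 40 gained a call and 58 lost one. No called difference reversed. Uncalled differences could change direction, as HMOX1 did in WT minus KO of 293T, with log2 values from -0.513 to 0.503. In Huh7 the calls of KEAP1, NQO1, GCLM and SRXN1 in V2084D minus WT held under those 15 alternatives, and the 8 comparisons of 293T other than K2025E minus KO stayed at 0 members under every alternative. Requiring a log2 difference of at least 1, which is not in these tallies and ends calls of a smaller size, left 1 member in each Huh7 comparison and in K2025E minus KO, and 0 between WT cells of the lines. For K2025E minus KO (2 members called) no filter and the GC and length offsets each gave 1, DESeq2 gave 4, and the compared groups alone and leaving out K2025E replicates 2 and 3, which leaves 1 library in that arm assumed to vary like the other groups, gave 0. For shSTUB1 minus V2084D (3 members) the GC and length offsets gave 6. These member counts are to be read beside the calls over all genes, which change with the setting too. DESeq2 called 4527 of all genes in K2025E minus KO, against 2989 in the main fit. For shSTUB1 minus V2084D it called 5845, against 4850. For the interaction (1 member) RLE factors and a filter of 1 CPM gave 2, and the GC and length offsets, the same with the block, and DESeq2 gave 3. Over all genes DESeq2 called 3335 there, against 2385. With the replicate block, a pairing not given by the labels, the WT comparison of the lines had 1 member in place of 5, also without G2087R replicates 1 and 2, and K2025E minus KO had 3 in place of 2, while the other counts were as without it. With 1 library left out, the members called ran from 0 to 6 for K2025E minus KO (6 without K2025E replicate 1), 4 to 5 for V2084D minus WT in Huh7, 2 to 5 for shSTUB1 minus V2084D, 6 to 7 for shSTUB1 minus WT, 2 to 5 between WT cells of the lines and 0 to 2 for the interaction. The cause of these changes was not tested. Counts over all genes moved too: for K2025E minus KO from 2989 to 1 without K2025E replicate 2, 618 without K2025E replicate 3, 1078 and 951 without KO replicates 1 and 2 and 5270 without K2025E replicate 1, and from 9443, 4850 and 10162 to as few as 2528, 658 and 2934 in the Huh7 comparisons when a log2 difference of at least 1 was required. For shSTUB1 minus V2084D it was 2887 without V2084D replicate 1 and 3140 without shSTUB1 replicate 1. The joint fit gave 2693 to 7560 in place of 5638 for WT cells and 1481 to 5203 in place of 2385 for the interaction. For the comparisons of 293T with 0 or 1 genes called, DESeq2 called 14 to 70, the widest alternative was 259 for WT minus KO, and K2025E minus WT reached 1048 without K2025E replicate 1. OSGIN1, at 0.604 to 4.41 CPM, had the largest standard error of the log2 difference among the members within Huh7. In the comparisons of 293T, between WT cells of the lines and in the interaction, HMOX1 had a larger one than OSGIN1. In K2025E minus KO these were 0.53 for HMOX1 and 0.34 for OSGIN1.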
